A study of Mus musculus with 12 samples.

Results

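Of the 55471 gene identifiers counted in mouse brain RNA, 7 were examined here: Nme7, Stk16, Tcte1, Tmem150b, Gm28221, Pcsk1n and Kif5a. They were picked by name because their counts were low in RNA precipitated with U1 and because each stands for an mRNA that is plentiful in neurons. Pcsk1n and Kif5a were read by their own symbols. The other 5 share exon bases, on the opposite strand, with such a gene: Nme7 with Atp1b1, Stk16 with Tuba4a, Tcte1 with Tmem151b, Tmem150b with Brsk1, and Gm28221 with Ncald. The word feature is used below for any annotated gene, because how strand was treated in counting was not given in the sources used here. Reads of 2 genes that overlap on opposite strands therefore cannot be told apart, and the link of these 5 features to the opposite mRNA rests on the annotation. Whether rows read by their own symbols, as Pcsk1n and Kif5a were, hold reads of those mRNAs or of the other strand was not tested.

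All mice were adult C57BL6JL males aged 3 to 5 months, and the tissue was cortex and hippocampus together. The 4 groups held 3 libraries each: U1 from MECS mice, U1 from naive mice, input from MECS mice and input from naive mice. MECS is maximal electroconvulsive stimulation, a current of 85 mA for 1 s that caused convulsions, with tissue taken 90 min later, and naive mice were handled in parallel. All lysates, naive ones included, came from tissue irradiated with ultraviolet light at 400 mJ/cm2, which links RNA to the proteins that touch it. Input was RNA set aside from the lysate, and U1 was RNA recovered with an anti-U1-70K antibody, which binds the product of Snrnp70. None of these libraries is a control precipitate, and libraries made with a second antibody were not used here. The labels do not say whether a library is 1 animal, so p-values measure only the spread between these samples, which may be technical.

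The U1 small nuclear ribonucleoprotein finds the start of introns when its RNA pairs with the 5′ splice site, and it also protects transcripts from being cleaved and polyadenylated too early inside introns. Spliced mRNA in the cytoplasm has lost its introns and with them these pairing sites. The study asked whether stimulation of neurons alters what U1 binds. The mRNAs named above serve neuronal physiology: Atp1b1 encodes the beta subunit of the sodium pump, Tuba4a an alpha-tubulin, Brsk1 a kinase of neuronal polarity and presynaptic terminals, Ncald the calcium sensor neurocalcin delta, Pcsk1n the precursor proSAAS, which inhibits the prohormone convertase PC1, and Kif5a a neuronal kinesin heavy chain that carries cargo along axons. The symbols of the overlapping features name other proteins. Nme7 belongs to the nucleoside diphosphate kinase family, Stk16 is a Golgi-associated kinase, Tcte1 is part of the dynein regulatory complex of sperm flagella, Tmem150b is a membrane protein linked to autophagy, and Gm28221 is an annotated antisense long noncoding RNA.

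The 5′ end of the U1 RNA is given because it is the stretch that meets the 5′ splice site. The first 20 bases of Rnu1a1 (chr11:87422867-87422886, + strand) and Rnu1b1 (chr3:96360098-96360117, - strand) are the same in the transcripts of GENCODE M21 on GRCm38. Capitals mark bases 3 to 11, whose reverse complement is CAGGTAAGT, the full match to a 5′ splice site.
Rnu1a1: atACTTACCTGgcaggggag
Rnu1b1: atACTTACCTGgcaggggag

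The other sequences are the last bases of the mRNAs, given because 4 of the 5 overlaps, all but that of Gm28221, reach the annotated 3′ end of the mRNA. Each line shows 30 bases around the polyadenylation signal AATAAA, in capitals, which ends 15 to 19 bases before the annotated end of the transcript. The stretches of Atp1b1, Tmem151b and Brsk1 lie wholly inside exons of Nme7, Tcte1 and Tmem150b. Tuba4a and Ncald had neither AATAAA nor ATTAAA in their last 50 bases.
Atp1b1 (chr1:164437112-164437141, - strand): aacacaacggacAATAAAagaatgaacaca
Tmem151b (chr17:45541959-45541988, - strand): acactgatggatAATAAAagtgtggatgac
Brsk1 (chr7:4715964-4715993, + strand): aacaacaacaaaAATAAAtagccttgatca
Pcsk1n (chrX:7924377-7924406, + strand): tcaccaaatgacAATAAAaagatgtctgtg
Kif5a (chr10:127225699-127225728, - strand): aaatatctttaaAATAAAataacttcgatg

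Words of the 5′ splice site were counted in the last 300 bases of the 7 mRNAs. GTAAGT occurred in none of the 7, against 3.84% of the windows of 58200 coding transcripts, and GTGAGT in none, against 5.85%. On the other strand, GTAAGT occurred once in Kif5a and GTGAGT once in Tmem151b. AATAAA was present in 6 of the 7, all but Tuba4a, against 47.5% of coding transcripts. No match says only that these letters are not in this window.

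The overlaps differ in kind. Nme7 (ENSMUSG00000026575, chr1:164304121-164437725, + strand) meets Atp1b1 tail to tail, and 575 of its exon bases, 9.79%, lie on Atp1b1 exon, all of it beyond the last coding base of both genes. Nme7 also has 189 exon bases on the first exons of Blzf1 at its other end. Stk16 (chr1:75210838-75215606, + strand) shares 1379 exon bases with Tuba4a in the same arrangement, 30.5% of its exon bases, and Tcte1 (chr17:45523434-45542680, + strand) shares 729 with Tmem151b, 23.7%. Tmem150b (chr7:4706832-4725249, - strand) runs back through Brsk1, and 2536 of its 3732 exon bases lie inside that gene. Of these, 1054 are on Brsk1 exons, 742 coding and 312 beyond the last coding base, and the others on its introns. Gm28221 (chr15:37367205-37368498, + strand) has 347 exon bases, all of them on the 3′ noncoding exon of Ncald. Pcsk1n (chrX:7919822-7924410, + strand) shares only 135 bases of its 3′ end with Eras. Kif5a (chr10:127225696-127263348, - strand) has no opposite-strand gene on it, the nearest being Dctn2 at 3020 bases.

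The tables were shallow over genes. Gene counts ranged from 704432 in naive input 2 to 1962312 in naive U1 2, which is 1.42 to 1.84% of the reads listed per library. The 7 features took 0.112 to 0.131% of the gene counts of U1 libraries and 0.303 to 0.530% of those of input libraries. Levels are given as CPM, the counts of a feature relative to the scaled gene counts of its library. Features without an opposite-strand gene were 72.2% of identifiers and held 13.8% of gene counts over all libraries. The row of the beta-actin gene Actb held only 6.86 to 32.8 CPM over the 12 libraries. The part of strand in these low own-symbol values was not tested. Summed CPM of 14 neuron markers, all with a count, were 587 to 1022 in MECS U1 and 559 to 747 in naive U1, against 1514 to 2388 in MECS input and 1669 to 2541 in naive input. Most of this sum was a single row, Nefm. It held 463.5 to 872 and 453 to 563 CPM in MECS and naive U1, against 1229 to 2023 and 1368 to 2253 CPM in MECS and naive input. The 8 astrocyte markers gave 129 to 143 and 130.5 to 168 CPM in MECS and naive U1, against 273.5 to 290.4 and 243 to 433 CPM in MECS and naive input. The 8 oligodendrocyte markers gave 275 to 329 and 270.5 to 277.5 CPM in MECS and naive U1, against 537 to 702 and 488 to 682 CPM in MECS and naive input. The summed CPM of each of these 3 lists was thus lower in every U1 library than in any input library. Single markers did not all follow. By own symbol, 3 of 9 neuron, 2 of 6 astrocyte and 3 of 5 oligodendrocyte markers tested were called lower in each state. None of these rows was called higher. Of all features, 5.21% were called lower in MECS brain and 6.26% in naive brain. Through features opposite them, 2 of 6 neuron markers were lower in MECS brain and 3 of 6 in naive brain. Rbfox3, read this way, was higher in naive brain, at a log2 change of 0.73 (SE 0.14). So read, 2 of 2 astrocyte and 0 of 2 oligodendrocyte markers were lower in each state. The 8 microglia markers, with Itgam at 0, lay at 248 to 260.3 and 242 to 261 CPM in MECS and naive U1, against 268 to 309 and 276 to 316 CPM in MECS and naive input. Their sum was thus also lower in every U1 library than in any input library, by a small gap. None of the 4 microglia markers tested was called in either state. The 12 endothelial, pericyte and smooth muscle markers lay higher with U1, at 199 to 229.5 and 225 to 331 CPM in MECS and naive U1, against 160.3 to 181 and 156 to 162.5 CPM in MECS and naive input. Between input and precipitate of the same lysate these sums describe recovered RNA, and their part in the values below was not tested. Between MECS and naive tissue, fewer cells of a type and less RNA per cell cannot be told apart.

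Nme7, over the end of the sodium pump mRNA Atp1b1, had 354, 331 and 276 CPM in the 3 MECS U1 libraries, against 1671, 901 and 1006 CPM in the matching MECS inputs. It had 252, 242.5 and 207.5 CPM in naive U1, against 1957, 1125 and 979 CPM in naive input. Every input library was thus well above every U1 library of its state, and the input libraries spread far more widely than the U1 libraries. On the log2 scale the change of U1 over input was -1.88 (SE 0.19) in MECS brain and -2.51 (SE 0.20) in naive brain.

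Stk16, over the end of the tubulin mRNA Tuba4a, had 134, 98.2 and 124 CPM in MECS U1, against 394, 246 and 309.6 CPM in MECS input. In naive brain it had 92.1, 94.5 and 102.5 CPM with U1, against 506, 357 and 333.5 CPM in input. U1 and input did not overlap in either state, and the log2 change was -1.40 (SE 0.17) in MECS brain, the smallest of the 7 in size, and -2.03 (SE 0.18) in naive brain.

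Tcte1, over the end of Tmem151b, had 204, 148 and 186 CPM in MECS U1, against 703, 459.9 and 591 CPM in MECS input. It had 128, 183 and 144.5 CPM in naive U1, against 696, 547 and 544.5 CPM in naive input. Each U1 library lay far below its input in both states, with log2 changes of -1.69 (SE 0.16) in MECS brain and -1.94 (SE 0.17) in naive brain.

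Tmem150b, which crosses coding and noncoding exons of the kinase gene Brsk1, had the most counts of the 7 over all libraries, 14415. It had 519, 466 and 576 CPM in MECS U1, against 1867, 1036 and 1378 CPM in MECS input. In naive brain it had 499, 481 and 541 CPM with U1, against 1896, 1402 and 1497 CPM in input. The U1 values of MECS and naive brain interleaved, and the log2 changes were -1.44 (SE 0.17) and -1.63 (SE 0.16) in MECS and naive brain.

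Gm28221, inside the 3′ noncoding exon of the calcium sensor gene Ncald, had 72.2, 62.3 and 60.7 CPM in MECS U1, against 375, 208 and 268 CPM in MECS input. It had 86.3, 90.9 and 76.5 CPM in naive U1, against 477, 373 and 237 CPM in naive input. Its log2 changes were nearly the same in both states, at -2.11 (SE 0.19) in MECS brain and -2.08 (SE 0.20) in naive brain.

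Kif5a, the kinesin read by its own symbol, had 32.7, 29.6 and 22.5 CPM in MECS U1, against 152, 106 and 180.1 CPM in MECS input. It had 24.5, 33.4 and 28.6 CPM in naive U1, against 84.0, 210.5 and 91.7 CPM in naive input. Naive input 2 stood above the other naive inputs here, where it did not for the 5 opposite-strand features. The log2 change was -2.36 (SE 0.22) in MECS brain and -2.09 (SE 0.28) in naive brain, where it was -1.54 without naive input 2.

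Pcsk1n, the gene of proSAAS, rested on few reads. Its counts were 6, 1 and 5 in MECS U1, against 25, 12 and 25 in MECS input, and 3, 4 and 8 in naive U1, against 30, 31 and 19 in naive input. With 169 counts over all libraries it ranked 5567th by CPM in naive input, so its row was not abundant in these tables. Its log2 changes were -2.60 (SE 0.51) in MECS brain and -2.74 (SE 0.51) in naive brain, with SEs above those of the other features. Without naive U1 3, which held 8 of the 15 naive U1 counts, the naive value was -3.36.

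**Figure D1:**
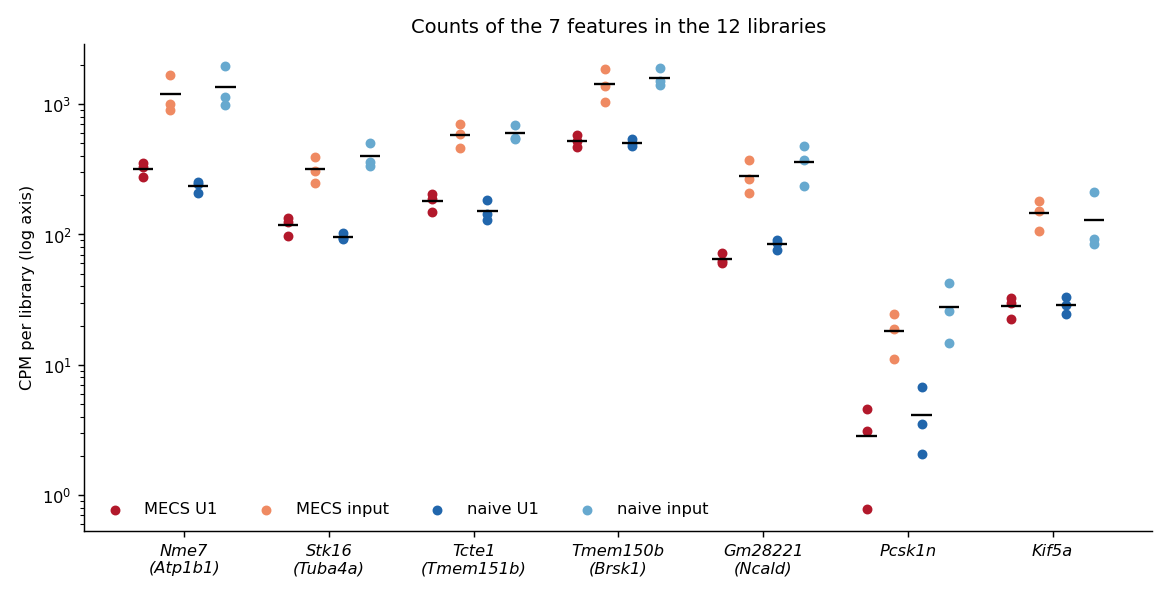
CPM of the 7 features in the 12 libraries on a log axis, with points for libraries and bars for group means (3 libraries per group). For each feature every U1 library lies below every input library of the same state, and Pcsk1n lies lowest of the 7, down to 0.779 CPM in MECS U1 2.

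All 7 features passed the filter on low counts for this contrast. In both states U1 was below input without overlap for 7 of 7, and all 7 were called lower by edgeR's quasi-likelihood test. The share of all features without overlap was not counted. Among all features tested, 5.21% were called lower in MECS brain (562 of 10791) and 6.26% in naive brain (683 of 10918), and 3.3% and 4.19% were called higher. This contrast chose the features, so the count is a description. With the lysate as a replicate block, 841 features were called lower and 647 higher in MECS brain, 1488 in all against 918 without it. Under library size scaling the naive calls were 565 higher and 562 lower, against 458 higher and 683 lower with TMM scaling. The median log2 change of the 7 was -1.88 in MECS brain and -2.08 in naive brain, against 0.02 and 0.03 over all other tested features. Counted from the lowest log2 change, the 7 stood between places 8 and 152 in MECS brain and between places 9 and 111 in naive brain. Pcsk1n was the lowest of the 7 in both states, Stk16 the highest in MECS brain and Tmem150b the highest in naive brain.

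**Figure D2:**
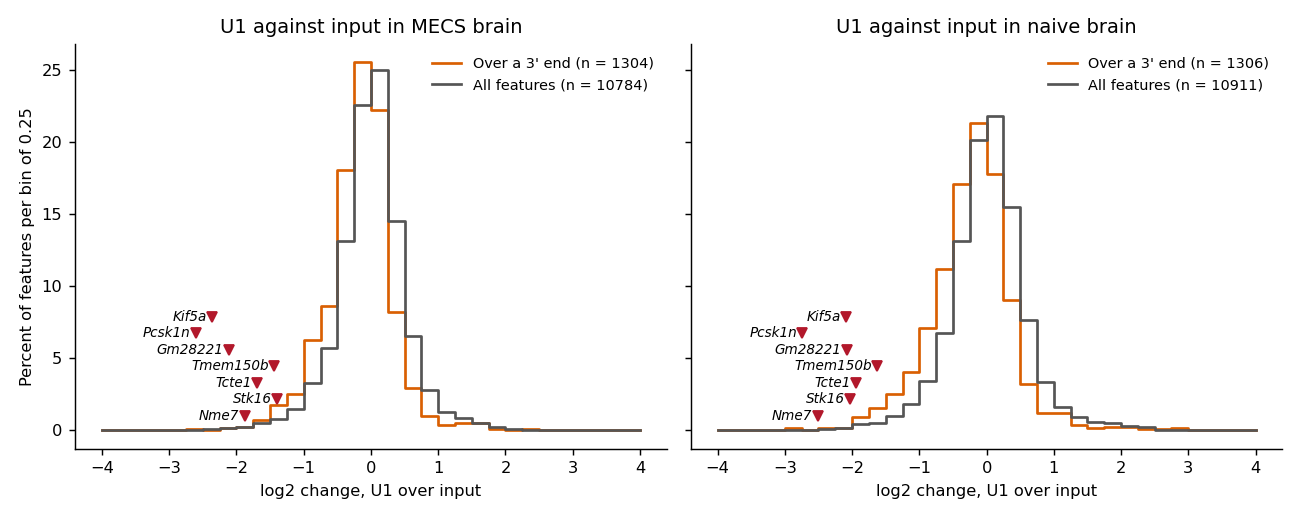
Distribution of the log2 change of U1 over input, in percent of features per bin of 0.25, in MECS brain (left) and naive brain (right), for features over a 3′ end of an opposite gene (orange) and all tested features except the 7 (grey). Triangles mark the 7, placed at different heights only to keep the names apart, and all lie at -1.40 or lower.

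The order of the group means was the same for Nme7, Stk16, Tcte1 and Tmem150b: naive U1 lowest, then MECS U1, MECS input and naive input. In Gm28221, Pcsk1n and Kif5a the MECS U1 mean was the lowest, and Kif5a was the only feature of the 7 with a higher mean in MECS input than in naive input. In each of the 7 the neighbours MECS input and naive input overlapped, and the step between U1 and input was the only one that separated libraries in all of them. Per kilobase of exon, Gm28221 was highest in naive input at 1045 CPM, followed by Tmem150b at 428, Nme7 at 230.3, Tcte1 at 194, Stk16 at 88.2, Kif5a at 18.4 and Pcsk1n at 12.6. In MECS U1 the levels per kilobase were 188 for Gm28221, 139 for Tmem150b, 54.5 for Nme7, 58.3 for Tcte1, 26.3 for Stk16, 4.04 for Kif5a and 1.29 for Pcsk1n, so Tcte1 and Nme7 changed places. These levels divide by all exon bases of the feature, of which only a part is shared with an opposite gene for Nme7, Stk16, Tcte1, Tmem150b and Pcsk1n.

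Each U1 library has an input from the same lysate, and the ratio was taken within lysates. The ranges of different features overlapped in part. Nme7 in U1 was at 21.2, 36.8 and 27.4% of input in the MECS lysates, against 12.9, 21.6 and 21.2% in the naive lysates, with a slight overlap. Stk16 was at 33.9, 39.8 and 40.02% in the MECS lysates, against 18.2, 26.5 and 30.7% in the naive lysates, without overlap. How many of all features separated the states by this ratio was not counted, so the separation of Stk16 is a description. Tmem150b was at 27.8 to 45.0% in MECS and 26.3 to 36.1% in naive lysates, Tcte1 at 28.96 to 32.2% and 18.4 to 33.5%, and Gm28221 at 19.3 to 29.97% and 18.1 to 32.2%. These 3 features also overlapped between the states. Kif5a ranged from 12.5 to 27.9% in MECS and from 15.9 to 31.2% in naive lysates, and Pcsk1n, on single-digit U1 counts, from 7.09 to 24.2% and from 4.85 to 45.9%.

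The rows of the opposite genes themselves held fewer reads and did not all follow. The Nme7 row held 20.9 counts for each count in the Atp1b1 row over all libraries, and the figure was 26.8 for Tcte1 over Tmem151b, 40.5 for Tmem150b over Brsk1, 45.1 for Gm28221 over Ncald and 2.40 for Stk16 over Tuba4a. The Atp1b1 row was lower with U1, with a log2 change of -1.23 (SE 0.25, edgeR adjusted p = 0.00193) in MECS brain and -1.18 (SE 0.30, edgeR adjusted p = 0.00727) in naive brain. The Brsk1 row passed the test only in naive brain, at -1.23 (SE 0.35, edgeR adjusted p = 0.0165), with -0.69 (SE 0.32, edgeR adjusted p = 0.220) in MECS brain. Whether these 2 values differ was not tested. Tmem151b was at -0.83 (SE 0.43) in MECS brain and -0.79 (SE 0.43) in naive brain and did not pass, at edgeR adjusted p of 0.297 and 0.293. Tuba4a, at 99.1 to 120.3% of input in MECS lysates and 78.1 to 112.8% in naive lysates, had log2 changes of 0.16 (SE 0.17) and -0.03 (SE 0.19), at edgeR adjusted p of 0.682 and 0.959. The rows Stk16 and Tuba4a, which share 1379 exon bases, thus had log2 changes of -1.40 and 0.16 in MECS brain and of -2.03 and -0.03 in naive brain. Ncald, at 1 to 10 counts per library, did not pass the filter on low counts.

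**Figure D3:**
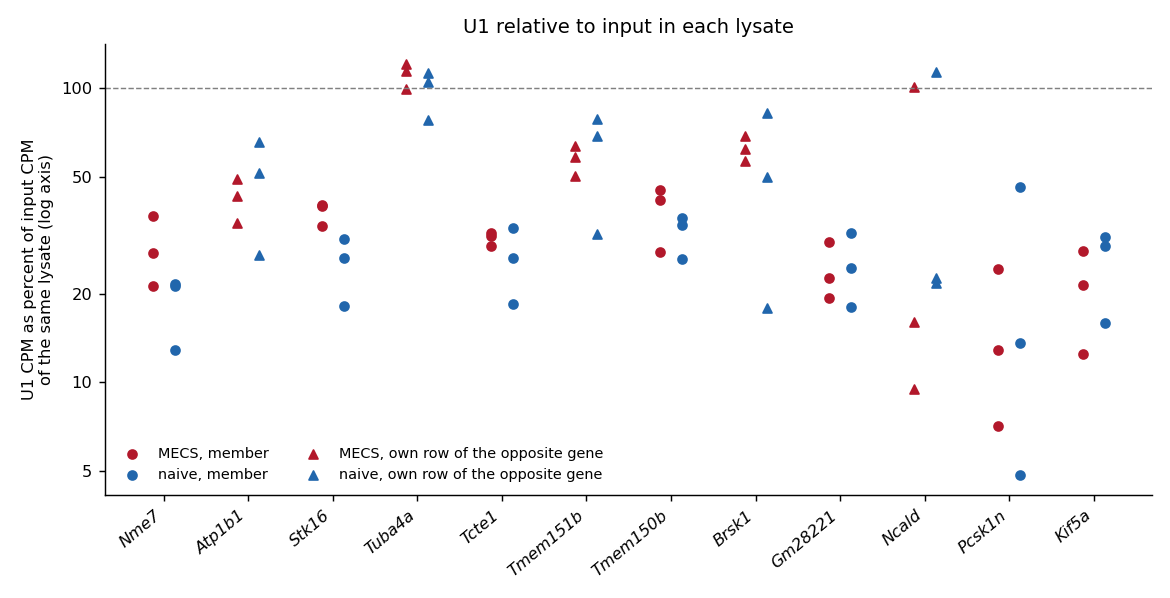
U1 CPM as a percentage of input CPM of the same lysate, on a log axis, for the 7 features (circles) and the rows of the 5 opposite genes (triangles), with MECS lysates in red and naive lysates in blue. The dashed line marks 100%, which the Tuba4a and Ncald rows straddle while all circles lie at 45.9% or below. The Ncald points rest on 1 to 10 counts per library.

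The Ncald gene allowed exonic and intronic features of a single gene to be set side by side. Gm28221 lies 1.68 kb from its 3′ end, and 4 other features on the opposite strand lie 55.8 to 344.6 kb from that end, within introns. Gm8668 had a log2 change of U1 over input of 0.20 (SE 0.16) in MECS brain and 0.26 (SE 0.17) in naive brain. 4930447A16Rik had -0.21 (SE 0.17) and 0.27 (SE 0.19), Gm3267 0.50 (SE 0.32) and 0.53 (SE 0.36), and Gm15942 0.20 (SE 0.20) and -0.16 (SE 0.24) in MECS and naive brain. None of the 4 was called in either state, and their U1 levels were 71.3 to 244% of input in MECS lysates and 73.8 to 249% in naive lysates. The lowest of those values stands above the highest of Gm28221, 32.2%. Gm28221 was chosen for being low with U1 and the other 4 were not, so this gap is a description and no test of position. Glb1l, a separate gene beside Stk16 that lies outside Tuba4a, had log2 changes of 0.10 (SE 0.14) in MECS brain and 0.06 (SE 0.17) in naive brain.

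**Figure D4:**
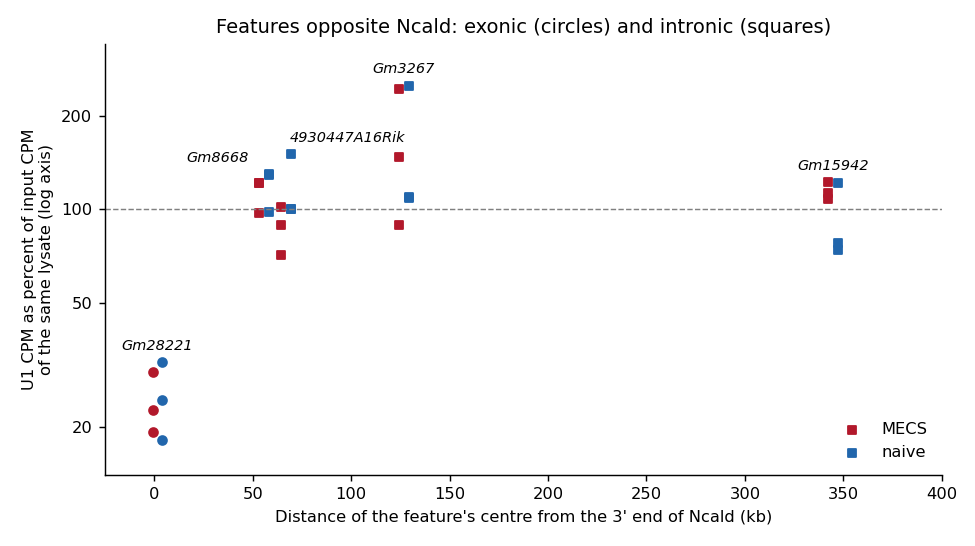
U1 CPM as a percentage of input CPM in each lysate, on a log axis, against the distance in kb of a feature's centre from the 3′ end of Ncald, with MECS points (red) and naive points (blue) shifted sideways to be seen. The exonic feature Gm28221 (circles), chosen for being low with U1, lies at 18.1 to 32.2%. The 4 intronic features (squares) lie around the dashed line at 100%.

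The other features were grouped by their position on opposite-strand genes. Of the features over at least 100 noncoding exon bases at the 3′ end of an opposite gene, the 7 left out, 193 of 1304 (14.8%) were called lower in MECS brain and 280 of 1306 (21.4%) in naive brain. Their median log2 changes were -0.13 and -0.18. Features wholly or mainly on exons of a single opposite gene were called lower in 80 of 420 cases (19.05%) in MECS brain and 104 of 421 (24.7%) in naive brain. Features on introns of a single opposite gene were called lower in 48 of 2924 cases in MECS brain and 60 of 2871 in naive brain, and higher in 119 and 146. Features without an opposite gene, as Kif5a is, were called lower in 117 of 3232 cases and higher in 73 in MECS brain, and lower in 103 of 3358 and higher in 113 in naive brain. Among features with naive input CPM within the range of the 7, 484 of 5540 (8.74%) were called lower in MECS brain and 631 of 5540 (11.4%) in naive brain. The medians of these last features were -0.01 and -0.04, against -1.88 and -2.08 for the 7. These shares are descriptions of position classes, and their difference was not tested.

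Relatives of these genes were read from lists by their own symbols and by the opposite-strand features on them. Of 14 tubulin and microtubule genes tested in each state, Tuba4a included, 3 were lower, against 5.21% of all features in MECS brain and 6.26% in naive brain, and none higher, and the 3 named here passed in both. They are the microtubule-associated proteins Map1a, at -1.04 (SE 0.15) in MECS brain and -1.28 (SE 0.19) in naive brain, Map1b at -1.67 (SE 0.25) and -1.14 (SE 0.27), and Map2 at -1.48 (SE 0.30) and -1.33 (SE 0.32). No tubulin passed by its own symbol. Through features opposite them, Map2 was lower at -0.65 (SE 0.14) in MECS brain and -0.80 (SE 0.16) in naive brain, and the alpha-tubulin gene Tuba8 at -1.04 (SE 0.36) in naive brain, with -0.59 (SE 0.37) in MECS brain. The medians over own symbols were 0.07 in MECS brain and -0.12 in naive brain. Among motor genes, 3 of 15 were lower in MECS brain, against 5.21% of all features, and 4 of 14 in naive brain, against 6.26%, with none higher. Kif5c, the closest neuronal relative of Kif5a, was at 8.13 ± 1.53 CPM in MECS U1 against 27.3 ± 3.53 CPM in MECS input, and at 8.40 ± 3.26 CPM in naive U1 against 30.02 ± 15.3 CPM in naive input (SD, n = 3 each). Its log2 changes were -1.72 (SE 0.33) and -1.86 (SE 0.44) in MECS and naive brain. Kif1a, a motor of synaptic vesicle precursors, was lower in both states, at -1.13 (SE 0.23) and -0.99 (SE 0.26) in MECS and naive brain. Kif2a, a microtubule-depolymerizing kinesin, was lower in naive brain at -1.03 (SE 0.23), with 0.09 (SE 0.19) in MECS brain. Read through opposite-strand features, Kif5b (-0.96, SE 0.15 and -1.25, SE 0.17), Kif3c (-0.70, SE 0.13 and -0.96, SE 0.15) and the dynein heavy chain Dync1h1 (-0.81, SE 0.18 and -0.74, SE 0.16) were lower in MECS and naive brain. Klc1, a kinesin light chain, was higher at 0.54 (SE 0.13) and 0.63 (SE 0.16).

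Of the calcium sensors related to Ncald, Ncs1, neuronal calcium sensor, was lower in MECS brain at -2.27 (SE 0.50), with -1.29 (SE 0.52) in naive brain, where it did not pass. Hpcal4 passed in naive brain at -2.03 (SE 0.55), with -1.52 (SE 0.59) in MECS brain. Of the kinase list, Brsk1 included, 1 of 9 tested was lower and 1 higher in MECS brain, where 5.21% of all features were lower and 3.3% higher. In naive brain 2 of 8 were lower, Brsk1 and Stk11, and 1 was higher, where 6.26% of all features were lower and 4.19% higher. Stk11, the kinase that activates the family, was lower at -0.70 (SE 0.20) and -0.81 (SE 0.18). Brsk2, the paralog of Brsk1, was higher with U1, at 128 ± 5.58 CPM in MECS U1 against 73.9 ± 4.42 CPM in MECS input, and at 156 ± 33.3 CPM in naive U1 against 66.9 ± 13.8 CPM in naive input (SD, n = 3 each). The Brsk1 and Brsk2 rows thus moved to opposite sides of their inputs in naive brain.

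Of the secretory pathway genes related to Pcsk1n, 2 of 7 were lower in MECS brain, against 5.21% of all features. In naive brain 2 of 7 were lower and 2 higher, against 6.26% and 4.19%. Carboxypeptidase E, Cpe, which trims prohormones, was at -1.73 (SE 0.37) in MECS brain and -2.13 (SE 0.44) in naive brain, and the granin-like Vgf at -1.15 (SE 0.29) and -1.06 (SE 0.25). Both passed in both states. The convertases Furin and Pcsk7 passed as higher in naive brain, at 0.95 (SE 0.28) and 0.99 (SE 0.32), with 0.68 (SE 0.30) and 0.42 (SE 0.34) in MECS brain. The feature opposite the prohormone convertase gene Pcsk2 was lower in both, at -0.91 (SE 0.13) and -0.91 (SE 0.14). Neither Tmem151a nor Tmem151b passed in either state. Of genes related to the feature symbols by family or name, 1 of 4 tested was higher in MECS brain, against 3.3% of all features. This was Tcte2 at 1.45 (SE 0.23), with 0.38 (SE 0.24) in naive brain, where it did not pass. Its means were 56.35 CPM in MECS U1 and 20.58 CPM in MECS input, and 54.63 and 42.33 CPM in naive brain. In naive brain 1 of 4 was lower, against 6.26% of all features: Bmp2k, a relative of Stk16, at -0.64 (SE 0.18). Through its opposite feature, Tmem150c was lower, at -0.59 (SE 0.16) and -0.96 (SE 0.22) in MECS and naive brain.

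The effect of stimulation on the 7 features was tested within each kind of RNA. In input, none of the 7 was called between MECS and naive brain, where 0.606% of 10402 features were, and their ranges overlapped in all 7. Gm28221 was 283 ± 84.4 CPM in MECS input against 363 ± 120.4 CPM in naive input (SD, n = 3 each). Its log2 change was -0.42 (SE 0.20, edgeR adjusted p = 0.505). Stk16 had -0.39 (SE 0.17, edgeR adjusted p = 0.427), and Pcsk1n -0.61 (SE 0.37, edgeR adjusted p = 0.636). Nme7, Tmem150b and Tcte1 lay at -0.25, -0.23 and -0.09, and Kif5a at 0.15 (SE 0.25, edgeR adjusted p = 0.904). The 95% intervals ran from -0.81 to -0.03 for Gm28221 and from -0.34 to 0.63 for Kif5a, before any adjustment over features.

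In U1 RNA none of the 6 features that passed the filter was called, where 0.386% of 11141 were. The U1 libraries also entered the choice of the features. Nme7 was at 320.4 ± 40.2 CPM in MECS U1 against 234 ± 23.4 CPM in naive U1 (SD, n = 3 each), with all MECS libraries above all naive ones. Its log2 change was 0.40 (SE 0.15, edgeR adjusted p = 0.320). Gm28221 was the reverse, with all MECS libraries below all naive ones, at -0.44 (SE 0.18, edgeR adjusted p = 0.375). The other 4 overlapped, with log2 changes from -0.11 for Kif5a to 0.25 for Stk16. How many of all features separated MECS from naive U1 libraries was not counted, so the separation of Nme7 and Gm28221 is a description. Pcsk1n had too few counts with U1 to be tested.

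As a description, the log2 change of U1 over input in MECS brain minus that in naive brain was 0.64 (SE 0.29) for Nme7 and 0.63 (SE 0.26) for Stk16, the largest of the 7. It was 0.26 (SE 0.24) for Tcte1, 0.20 (SE 0.24) for Tmem150b, -0.03 (SE 0.29) for Gm28221, 0.15 (SE 0.89) for Pcsk1n and -0.28 (SE 0.40) for Kif5a. Over all 12184 features tested, edgeR called 0 for this difference and DESeq2 also 0, with 383 at an unadjusted p under 0.05 in edgeR.

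The 7 did not vary together across input libraries. Over the 6 input libraries, Pearson correlations of log2(CPM + 0.5) between the 5 opposite-strand features were 0.81 to 0.96. Kif5a correlated with those 5 at -0.20 to 0.09, and Pcsk1n at 0.33 to 0.70. These libraries include MECS and naive tissue and differ in depth, and the correlations are descriptions. MECS input 1 and naive input 1 were the highest of their groups for each of the 5, and these 2 libraries had the lowest TMM factors, 0.929 and 0.939. Naive input 2, with the fewest gene counts, was the highest naive input for Kif5a and Pcsk1n. The excitatory neuron gene Camk2a, which has no opposite-strand gene, was also highest there among naive inputs, at 183 CPM against 99.4 and 109.4 CPM. The part of depth or composition in this pattern was not tested.

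**Figure D5:**
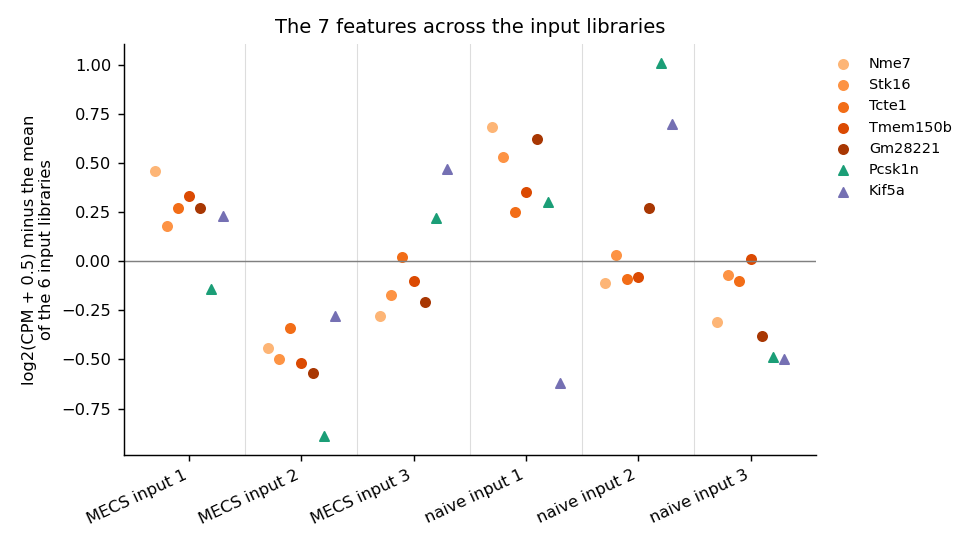
The level of each feature in each input library, as log2(CPM + 0.5) minus its mean over the 6 input libraries, with opposite-strand features as orange circles and Pcsk1n and Kif5a as triangles. The circles move together, high in MECS input 1 and naive input 1 and low in MECS input 2, while Kif5a is at -0.62 in naive input 1 and 0.70 in naive input 2.

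Among 9759 other features with a mean of at least 10 CPM, those most like the mean profile of the 7 over the 12 libraries were found by Pearson correlation of log2 CPM. The 5 closest were Eps8l3 (r = 0.992), Gm14703 (r = 0.990), Gm18609 (r = 0.988), Rapgef4os2 (r = 0.988) and B130046B21Rik (r = 0.987). With 12 libraries that split into U1 and input, the points share the gap between the 2 kinds of RNA and the values are descriptions. Gm14703 lies opposite Syp, which encodes the synaptic vesicle protein synaptophysin. It had 782 ± 173 CPM in MECS U1 against 3692 ± 1167 CPM in MECS input, and 679.7 ± 89.2 CPM in naive U1 against 3813 ± 889 CPM in naive input (SD, n = 3 each). Rapgef4os2 lies in introns of Rapgef4, a cAMP-activated exchange factor gene, with a log2 change of -1.43 (SE 0.17) in naive brain. B130046B21Rik lies opposite Prkag1 and Ddn, the gene of the dendritic protein dendrin, with log2 changes of -1.25 (SE 0.14) in MECS brain and -1.59 (SE 0.17) in naive brain. Each of the 5 has a gene on the opposite strand, as did most tested features: in naive brain, 3358 of 10911 had none.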

How the data were processed

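The deposited files hold raw counts by Ensembl identifier, 1 file for each library. Tools named in the submitters' processing notes, without roles, are HISAT2 2.2.0, Trimmomatic 0.39, FastQC, Salmon 1.4, StringTie 2.1.3 and DESeq2, and the build is mm10. The kit was stranded, per the labels' protocols; the counting program and its strand setting were not given in the sources used here. Rows naming no gene, 98.2 to 98.6% of listed reads, were left out. Identifiers were matched to GENCODE M21 (55144 of 55471). Counts were tested with edgeR 4.0.16 quasi-likelihood in R 4.3.3 (TMM, filterByExpr, Benjamini-Hochberg at 0.05) on the groups compared, all 12 libraries for the interaction; SE is the log2 change over the square root of F. Intervals are 95%. CPM use TMM over all libraries. Opposite-strand genes were assigned where at least 50% of exon bases lay in exactly 1 gene and at most 10% in any other; exon or intron class needed 80%. Title prefixes pair U1 and input of 1 lysate; deviations correlated at 0.124 to 0.22 in MECS and -0.11 to 0.01 in naive pairs. Relatives named are up to 4 per list with the smallest p in naive U1 against input. Some genes that met this rule are not reported here. Members and lists were chosen with earlier results of these data known. Scripts were tested on simulated data. Alternatives were other scaling and filters, DESeq2 1.42.0, removal of mitochondrial and small RNA genes, a replicate block, 1 joint fit and leave-one-out fits.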

Additional observations from a re-analysis of the deposited data

How the results depend on the processing

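The log2 changes of the 7 features in U1 against input kept their sign and their call under every alternative run, from -3.06 to -1.21 in MECS brain and from -3.36 to -1.51 in naive brain. Because U1 against input chose the 7 in these same libraries, their calls are descriptions under every setting. The count of features called in that contrast was 711 to 1254 in naive brain when 1 library was left out (711 without naive input 1, 1141 with all) and 613 to 894 in MECS brain (918 with all). With the replicate block, in which U1 and input of a lysate are paired, the MECS count was 1488. Between MECS and naive input the 63 calls became 129 with library size scaling, 111 with no filter, 142 with the replicate block and 19 to 114 when 1 library was left out: 19, 21 and 31 on dropping naive input 1, 2 and 3, 24 on dropping MECS input 3 and 114 on dropping MECS input 1. Between MECS and naive U1 the 43 calls became 151 with no filter, 86 with DESeq2, 88 in the fit of all 12 libraries and 13 to 225 when 1 library was left out: 15 and 225 on dropping naive U1 1 and 2, and 13 and 121 on dropping MECS U1 1 and 2. For the MECS effect on the ratio, 1 feature was called with library size scaling, with no filter and with the replicate block, and 0 to 1 when 1 library was left out. The cause of these shifts was not tested. The numbers in the titles pair no MECS with naive library; same-numbered libraries deviated at -0.036 to 0.083 in input and -0.118 to 0.007 in U1. None of the 7 was called between MECS and naive under any alternative, the lowest edgeR or DESeq2 adjusted p being 0.128 in input and 0.219 in U1. Signs turned when 1 library was left out in input for Nme7 (-0.54 to 0.11), Tcte1 (-0.22 to 0.0802) and Kif5a (-0.0883 to 0.71), and in U1 for Tmem150b (-0.0930 to 0.0750, and 0.0234 with no filter) and Kif5a (-0.22 to 0.0467). Depth limits Pcsk1n most, at 1 to 8 counts per U1 library.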
